A study of Mus musculus with 12 samples.

Results

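The Zbtb genes, which encode transcription factors with a BTB domain and zinc fingers, were followed across the palatal shelves of tamoxifen-treated and control mouse embryos. Members were taken by symbol: every gene symbol made of Zbtb, a number and at most 1 further letter, without the antisense and opposite-strand symbols Zbtb11os1 and Zbtb8os. This gave 40 genes of the 24391 symbols counted, and all 40 passed the filter on low counts that 15958 symbols passed. The family was selected on its tamoxifen changes in these same libraries, so the tamoxifen changes of its members are given as a description, without p-values.

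The tissue was the palatal shelf, the paired outgrowth that forms the roof of the mouth, from C57BL/6 embryos at E13.5. RNA from the anterior and the posterior shelf was sequenced as 4 groups of 3 libraries. These were anterior control, anterior tamoxifen, posterior control and posterior tamoxifen. Tamoxifen binds oestrogen receptors and acts as agonist or antagonist by tissue, and the series names it as a cause of cleft palate in mice. Its dose and timing are not in the labels, and neither is what the control mice received. No genetic change is named for any group. The labels do not say whether the 3 libraries of a group came from separate embryos or litters. A p-value here therefore weighs a difference against the spread of libraries within groups, estimated jointly over the 4 groups, and this spread may be technical.

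Zbtb proteins bind DNA through zinc fingers near one end and carry at the other a BTB (also called POZ) domain, through which they form dimers. The BTB domain of many members recruits corepressors such as NCoR, SMRT, BCOR and Sin3 with their histone deacetylases, and some members bring in the ubiquitin ligase scaffold Cul3. Most members that have been studied act as repressors, and the best known of them direct lineage choices in blood, lymphocytes, skeleton and brain, while others bind methylated CpG sites or telomeres.

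Sequence upstream of 3 members is shown, chosen by their changes under tamoxifen. Zbtb37 had the largest rise. Zbtb33 was the methyl-CpG binding member that rose in both parts of the palate as counted and under both checks of transcript length. Zbtb17 was the most abundant member that fell as counted, a fall that was not called in every check of transcript length. Each run is the 250 bases before a RefSeq gene start, read 5′ to 3′ on the gene's strand (build GRCm38.p6). Capitals mark the motifs that were found, on either strand.
Zbtb37, chr1:161034850-161035099, minus strand: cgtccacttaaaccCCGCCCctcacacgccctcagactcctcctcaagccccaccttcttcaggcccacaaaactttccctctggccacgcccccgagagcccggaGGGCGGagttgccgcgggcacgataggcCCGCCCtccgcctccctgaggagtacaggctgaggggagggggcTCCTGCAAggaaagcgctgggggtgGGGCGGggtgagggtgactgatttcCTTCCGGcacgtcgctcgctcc
Zbtb33, chrX:38189543-38189792, plus strand: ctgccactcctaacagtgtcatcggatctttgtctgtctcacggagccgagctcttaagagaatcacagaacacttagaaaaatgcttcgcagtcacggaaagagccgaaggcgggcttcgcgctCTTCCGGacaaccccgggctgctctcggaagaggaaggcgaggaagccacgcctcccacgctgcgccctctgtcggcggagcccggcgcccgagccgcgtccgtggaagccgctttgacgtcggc
Zbtb17, chr4:141444423-141444672, plus strand: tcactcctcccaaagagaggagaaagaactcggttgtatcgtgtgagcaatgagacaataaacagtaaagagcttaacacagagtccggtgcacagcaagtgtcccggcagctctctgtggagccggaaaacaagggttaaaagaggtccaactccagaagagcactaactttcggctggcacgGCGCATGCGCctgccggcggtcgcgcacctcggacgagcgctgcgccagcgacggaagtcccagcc
The capitals are 4 GC boxes (GGGCGG), a Kaiso site (TCCTGCNA) and an ETS site (CCGGAAG) for Zbtb37, an ETS site for Zbtb33, and an NRF1 site (GCGCA followed directly by TGCGC) for Zbtb17.

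Windows of 300 bases (250 before and 50 after the start) were matched for 35 of the 40 members, 48 windows in all, and were compared with all 32851 windows of the RefSeq table. The members' windows had a median GC content of 64.3% against 52.7% for all windows, and a median observed-to-expected CpG ratio of 0.808 against 0.384. A GC box stood in 66.7% of the members' windows against 35.7% of all windows. The ETS letters stood in 12 of 48 windows against 8.86% of all windows, and the NRF1 letters in 3 of 48 windows (6.25%) against 0.97%, which were 1 start of Zbtb41 and 2 overlapping starts of Zbtb17. Kaiso sites, the letters bound by the family's own member Zbtb33, stood in 4 windows (8.33%) against 4.96%, and these were 3 starts of Zbtb18 and the 1 of Zbtb37. The palindromic oestrogen response element, GGTCA and TGACC with 3 bases between them, was in 0 of the 48 windows and in 0.07% of all windows. Other starts of the same gene overlap, so the windows are not independent, and a match describes letters only. All windows together belong to 27025 genes and were not limited to genes that passed the filter, as all 40 members did. The differences from all windows are therefore not read as particular to the family.

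Levels are TMM-scaled CPM, that is, counts relative to the size of their library, and total counts ran from 39.4 M to 73 M per library. Divided by the length of the longest transcript, the control levels were highest for Zbtb12 (53.5 CPM per kilobase), Zbtb17 (24.99) and Zbtb22 (20.9), and lowest for Zbtb37 (0.143), Zbtb32 (0.160) and Zbtb20 (0.174). Zbtb32, a lymphocyte gene, stayed between 0.0955 and 0.424 CPM over the 12 libraries, and its fold changes carry standard errors (SE) of 0.50 and 0.51 (log2). The summed markers of the anterior palate were at 786 to 1030 CPM in anterior and at 29 to 43.4 CPM in posterior control libraries, and those of the posterior palate at 384 to 452 and 1030 to 1240 CPM. All 5 markers of palatal mesenchyme were present, with sums of 1950 to 1960 CPM in the anterior controls.

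In the anterior palate 20 of the 40 members rose under tamoxifen, 5 fell and 15 were not called (edgeR's quasi-likelihood test, adjusted p under 0.05). The background was 25.6% of all genes called higher and 24% called lower. The log2 fold changes of the members ran from -0.77 to 2.30 with a median of 0.25, against -0.016 for all genes tested. In the posterior palate 12 rose, 4 fell and 24 were not called, beside 17.3% and 11.7% of all genes, and the median was 0.19 against 0.022. Nothing is read from these shares, since the family was chosen with them in view. In bulk tissue, a change in the number of cells of a type and a change in RNA per cell cannot be told apart.

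The 12 members that rose in both parts were Zbtb1, Zbtb5, Zbtb11, Zbtb18, Zbtb26, Zbtb33, Zbtb34, Zbtb37, Zbtb38, Zbtb39, Zbtb41 and Zbtb43. Another 8 were called higher in the anterior palate only (Zbtb6, Zbtb8b, Zbtb9, Zbtb10, Zbtb14, Zbtb21, Zbtb40 and Zbtb44), and the posterior log2 fold changes of these ran from 0.069 to 0.33. Zbtb17, Zbtb20, Zbtb22 and Zbtb48 fell in both parts, and Zbtb45 was called lower in the anterior palate only. The fold changes of 37 of the 40 members had the same sign in both parts, and 32 were larger in size in the anterior palate. Neither count was made over all genes, and nothing is read from them. The 3 tamoxifen libraries lay above the 3 control libraries for 21 members in the anterior and 20 in the posterior palate, beside 28.7% and 26.5% of all genes, and below them for 6 and 4 members, beside 27.8% and 21.5%.

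**Figure D1:**
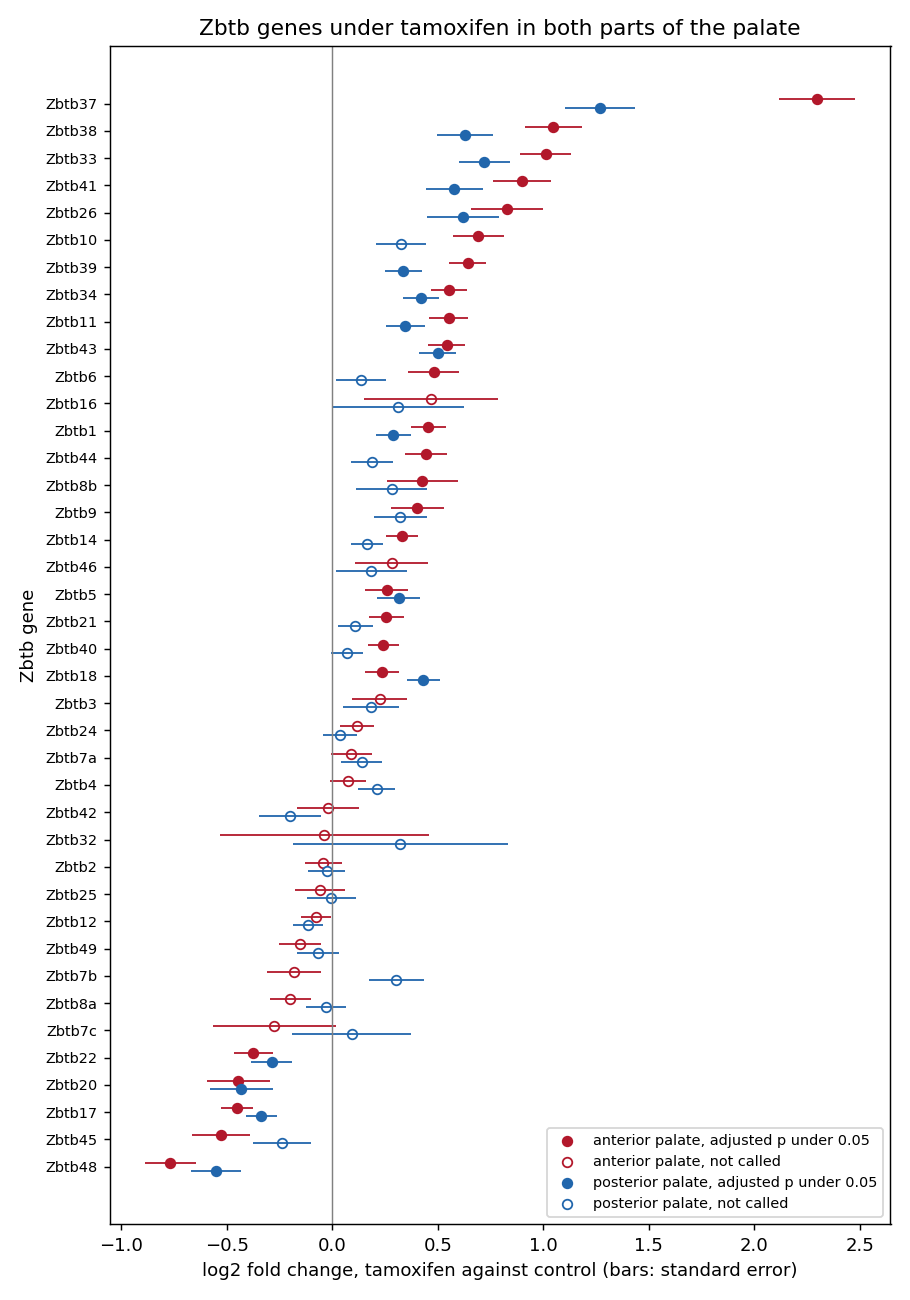
Log2 fold change under tamoxifen (x axis) of the 40 Zbtb genes (y axis, ordered by the anterior value), in red for the anterior and in blue for the posterior palate. Bars are standard errors from the fit to all 12 libraries (3 per group), and filled points were called. Zbtb37 stands at 2.30 and 1.27 at the top, and Zbtb48 at -0.77 and -0.55 at the bottom.

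The methyl-CpG binding members are Zbtb33, Zbtb4 and Zbtb38. Zbtb33 (Kaiso), which also binds the catenin Ctnnd1 (p120), was at 22.9, 22.6 and 18.6 CPM in anterior controls and at 42.3, 49.7 and 37.1 CPM in anterior tamoxifen libraries. Posterior levels were 21.0, 25.2 and 20.6 CPM in controls and 41.2, 34.5 and 34.2 CPM under tamoxifen. Neither pair of groups overlapped, and the fitted rises were 2.02-fold (log2 1.01, SE 0.12) in the anterior and 1.65-fold (log2 0.72, SE 0.12) in the posterior palate.

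Exons of Zbtb33 overlap those of Tmem255a on the opposite strand, and the strand setting of the counting is not given in the sources used here. Tmem255a rose as well, from means of 28.8 to 45.1 CPM in the anterior and from 31.2 to 51.3 CPM in the posterior palate, so reads from this pair may be shared between them, which was not tested.

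Zbtb38, the other large riser of this group, was at 5.15, 5.92 and 4.45 CPM in anterior controls and at 10.8, 9.69 and 11.6 CPM under tamoxifen. Posterior controls were at 6.63, 7.26 and 5.66 CPM and the tamoxifen libraries between 10.04 and 10.13 CPM. Both pairs of groups were apart, with rises of 2.07-fold (log2 1.05, SE 0.14) and 1.55-fold (log2 0.63, SE 0.13). Zbtb4 was not called in either part, with 30.7, 27.8 and 25.8 CPM in the anterior controls and 30.6, 27.1 and 30.9 CPM under tamoxifen, which overlap. Its posterior values were 31.1, 30.4 and 31.5 CPM against 33.2, 38.6 and 35.9 CPM (log2 0.21, SE 0.087). The anterior log2 fold change of Zbtb4, 0.074 (SE 0.087) as counted, was called in opposite directions by the checks of transcript length described below, at -0.29 (SE 0.065) by the longest transcript and at 0.47 by the transcript of median length.

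Among the 12 members known from lineage choice and development, 2 rose and 3 fell in the anterior palate (16.7% and 25% of the 12, beside 25.6% and 24% of all genes). In the posterior palate 2 rose and 2 fell (16.7% each, beside 17.3% and 11.7%). Zbtb17 (Miz-1), a partner of Myc, was the most abundant of the members that fell. It was at 87.8, 88.9 and 100.4 CPM in anterior controls and at 68.0, 70.7 and 64.0 CPM under tamoxifen, and at 85.7, 77.5 and 81.2 against 61.8, 68.4 and 63.4 CPM in the posterior palate. The groups did not overlap in either part, and the falls were 1.37-fold (log2 -0.45, SE 0.075) and 1.26-fold (log2 -0.34, SE 0.075). In the checks of transcript length described below, neither fall of Zbtb17 was called by the longest transcript. By the transcript of median length its anterior change was -0.17, not called, and its posterior fall was still called at -0.23. The exons of Zbtb17 overlap Spen on the opposite strand, a gene that rose from a mean of 132 to 201 CPM in the anterior palate.

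Zbtb20, a regulator in brain, liver and growth plate cartilage, was low, at 5.18, 4.52 and 4.61 CPM in the anterior controls and 3.68, 3.47 and 3.35 CPM under tamoxifen. Its posterior values were 5.13, 4.11 and 4.46 CPM against 3.65, 3.38 and 3.12 CPM. The tamoxifen libraries were lower without overlap in both parts, by 1.36-fold (log2 -0.44, SE 0.15) and 1.35-fold (log2 -0.43, SE 0.15), but the posterior call was lost when any 1 of 5 of the 6 posterior libraries was left out, or without the filter on low counts. The anterior call was lost without the control library 1 or the tamoxifen library 3. Cartilage markers summed to 359 to 419 CPM in anterior controls and to 284 to 375 CPM under tamoxifen, and in the posterior palate to 1840 to 2090 and 1310 to 1880 CPM. Their part in this result was not tested.

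Zbtb45, known from glial differentiation, had 40.8, 41.0 and 49.0 CPM in the anterior controls and 30.6, 24.5 and 35.5 CPM under tamoxifen, a fall of 1.44-fold without overlap (log2 -0.53, SE 0.14). Its posterior values overlapped, with 41.0, 31.8 and 33.8 CPM in controls and 25.4, 33.2 and 31.9 CPM under tamoxifen (log2 -0.24, SE 0.14, not called). Zbtb18 (RP58), a repressor in cortical neurons, had 25.4, 25.7 and 22.4 CPM in the anterior controls and 27.9, 30.6 and 28.02 CPM under tamoxifen. The anterior groups were apart by a small margin, with a 1.18-fold rise (log2 0.24, SE 0.080) whose call was lost without control library 3 or tamoxifen library 2. In the posterior palate Zbtb18 rose 1.35-fold (log2 0.43, SE 0.080), from 22.7, 22.9 and 23.0 CPM to 32.0, 30.7 and 29.9 CPM.

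Zbtb16 and Zbtb7a, among the best known members of the family, were not called. Zbtb16 (PLZF), which patterns the limb and axial skeleton, was at 1.61, 2.25 and 1.26 CPM in the anterior controls and 2.59, 1.77 and 2.71 CPM under tamoxifen, and at 1.37, 2.72 and 1.91 against 2.93, 1.47 and 3.01 CPM in the posterior palate. These groups overlapped, and the log2 fold changes were 0.47 (SE 0.32) and 0.31 (SE 0.31). Zbtb7a (LRF), a regulator of blood lineages, was at 47.4, 56.6 and 51.1 CPM in anterior controls and at 57.1, 50.1 and 58.0 CPM under tamoxifen, which also overlap. Its posterior values were 51.9, 42.5 and 47.0 CPM against 46.2, 53.5 and 56.1 CPM.

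**Figure D2:**
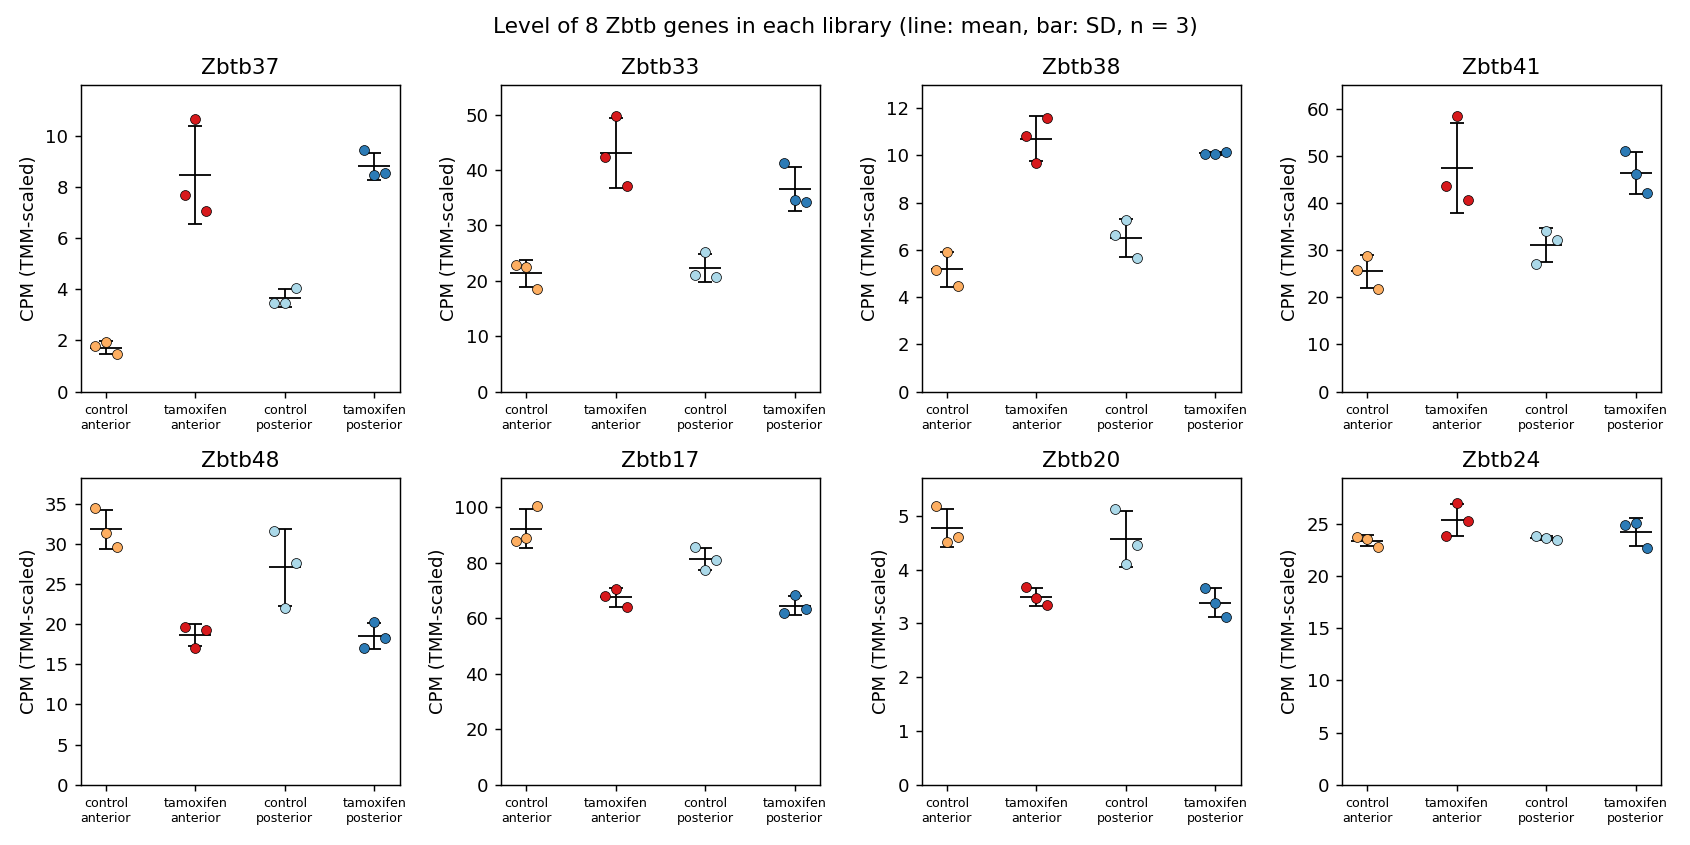
TMM-scaled CPM (y axis, from 0) of 8 Zbtb genes in each of the 12 libraries, by group (x axis). Points are libraries, lines are means and bars are SD over 3 libraries. Zbtb37 is lower in the anterior than in the posterior controls, at means of 1.72 and 3.65 CPM, and stands at 8.45 and 8.80 CPM under tamoxifen, while Zbtb24 stays between 22.7 and 26.9 CPM.

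Of the 6 members known from genome maintenance, telomeres and DNA methylation, 3 rose and 1 fell in the anterior palate, beside 25.6% and 24% of all genes, and 1 rose and 1 fell in the posterior palate (16.7% each, beside 17.3% and 11.7%). Zbtb48 (TZAP), which binds telomeric repeats and has been tied to telomere trimming, had the largest fall of the family. It was at 34.5, 31.3 and 29.6 CPM in anterior controls and at 19.6, 17.1 and 19.3 CPM under tamoxifen. Posterior levels of Zbtb48 were 31.6, 22.1 and 27.6 CPM in controls and 17.0, 20.2 and 18.3 CPM under tamoxifen. All tamoxifen libraries lay below all controls of their part, by 1.70-fold (log2 -0.77, SE 0.12) and 1.47-fold (log2 -0.55, SE 0.12).

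Zbtb10, a member that has been found at variant telomeric repeats, was at 23.9, 25.3 and 20.2 CPM in anterior controls and at 32.8, 43.7 and 35.7 CPM under tamoxifen. The groups were apart, with a 1.61-fold rise (log2 0.69, SE 0.12). With the length and GC trend removed this was 0.057 by the longest and 0.032 by the median transcript, and not called. Its posterior values were 21.6, 27.3 and 27.6 CPM against 30.2, 32.5 and 33.2 CPM, without overlap but not called (log2 0.32, SE 0.12). Zbtb11 rose 1.47-fold (log2 0.55, SE 0.094) in the anterior palate, from 18.1, 19.1 and 18.3 to 26.2, 30.3 and 24.9 CPM, and 1.27-fold (log2 0.35, SE 0.093) in the posterior palate, from 21.0, 25.02 and 24.9 to 30.5, 29.3 and 30.3 CPM. Both pairs of groups were apart, and the posterior call was lost without control library 1. The opposite-strand symbol Zbtb11os1, whose exons overlap Zbtb11, went the other way in the anterior palate, from a mean of 4.03 to 2.13 CPM. Pcnp, which also overlaps Zbtb11 on the opposite strand, rose there from a mean of 99.2 to 123 CPM. Exons of Gm28037 overlap Zbtb11 on the same strand, and this symbol was not among those counted. Reads may be shared between these genes, which was not tested. Zbtb24, a gene mutated in an immunodeficiency with hypomethylated centromeric repeats, was not called, with anterior levels of 23.8, 23.5 and 22.8 CPM in controls against 23.8, 26.9 and 25.2 CPM. Its posterior levels overlapped, at 23.8, 23.6 and 23.4 against 24.9, 25.03 and 22.7 CPM, and the log2 fold changes were 0.12 (SE 0.080) and 0.037 (SE 0.080).

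With 25.6% and 17.3% of all genes called higher in the anterior and the posterior palate, the 19 members that are in none of these role lists held 13 of the 20 anterior rises and 7 of the 12 posterior rises, with 1 fall in each part. Zbtb37 had the largest rise of the family. It was at 1.76, 1.93 and 1.45 CPM in anterior controls (62 to 80 counts) and at 7.67, 10.6 and 7.05 CPM under tamoxifen (318 to 569 counts). Its posterior levels were 3.45, 3.46 and 4.04 CPM in controls and 9.42, 8.44 and 8.54 CPM under tamoxifen. Every tamoxifen library was above every control library, by 4.92-fold (log2 2.30, SE 0.18) in the anterior and 2.41-fold (log2 1.27, SE 0.17) in the posterior palate. Without tamoxifen library 2, the highest one, the anterior log2 fold change was 2.11. The overlapping opposite-strand gene Serpinc1 was lower under tamoxifen, at means of 1.46 and 0.597 CPM in the anterior palate.

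Zbtb41 was at 25.9, 28.8 and 21.8 CPM in anterior controls and at 43.6, 58.4 and 40.5 CPM under tamoxifen, and in the posterior palate at 27.0, 34.1 and 32.1 against 51.0, 46.2 and 42.1 CPM. It rose 1.86-fold (log2 0.90, SE 0.14) and 1.49-fold (log2 0.58, SE 0.14), and the groups of both parts were apart. Zbtb43 was at 20.9, 19.8 and 18.8 CPM in anterior controls and at 28.9, 29.9 and 27.8 CPM under tamoxifen, and in the posterior palate at 18.1, 21.0 and 20.9 against 30.6, 26.6 and 27.6 CPM. The groups did not overlap, and its rises were 1.46-fold (log2 0.54, SE 0.089) in the anterior and 1.41-fold (log2 0.50, SE 0.089) in the posterior palate. Zbtb22 was the 1 member of this group that fell, from 50.1, 56.9 and 63.4 to 41.2, 47.2 and 43.3 CPM in the anterior and from 51.8, 49.2 and 55.4 to 38.6, 46.2 and 43.4 CPM in the posterior palate. No tamoxifen value of Zbtb22 reached a control value of its part, and the falls were 1.30-fold (log2 -0.37, SE 0.094) and 1.22-fold (log2 -0.29, SE 0.095), the second lost without control library 1 or 3 or tamoxifen library 1 or 3. Exons of Zbtb22 overlap those of Tapbp on the same strand. Means of Tapbp went from 72.6 to 54.5 CPM in the anterior and from 59.1 to 55.4 CPM in the posterior palate. Reads may be shared between these genes, which was not tested.

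Zbtb26 and Zbtb6 share exons on the same strand, so their counts are uncertain. Exons of Zbtb9 also overlap Ggnbp1, and those of Zbtb21 overlap C2cd2, on the same strand, so this holds for Zbtb9 and Zbtb21 too. Zbtb26 was at 11.6, 12.4 and 7.35 CPM in anterior controls and at 18.2, 21.9 and 15.5 CPM under tamoxifen, and in the posterior palate at 8.94, 11.1 and 9.82 against 16.4, 13.9 and 15.4 CPM. It rose 1.77-fold (log2 0.83, SE 0.17) and 1.53-fold (log2 0.62, SE 0.17) without overlap, and the posterior call was lost without control library 1 or tamoxifen library 1. Zbtb6 rose in the anterior palate by log2 0.48 (SE 0.12), with 0.14 (SE 0.12) in the posterior palate. Of the other members of this group that rose in both parts, Zbtb39 had log2 fold changes of 0.64 (SE 0.088) and 0.34 (SE 0.088), and Zbtb34 of 0.55 (SE 0.086) and 0.42 (SE 0.085). The smallest of these rises was that of Zbtb5, at 0.26 (SE 0.10), with overlapping values, and 0.31 (SE 0.10).

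Transcript length and GC content differed among the members and ran with these changes. Taken from the longest transcript per gene, the members' lengths ran from 1775 bases (Zbtb32) to 26901 bases (Zbtb20) with a median of 4971, against 3307 for all genes tested. GC content ran from 36.9% (Zbtb41) to 61.2% (Zbtb12) with a median of 50.3%, close to that of all genes. Across the 40 members the anterior log2 fold change had a Spearman correlation of 0.55 with length and -0.69 with GC content, and across the 15844 genes with both values 0.54 and -0.52. In the posterior palate these were 0.42 and -0.55 for the members and 0.48 and -0.41 for all genes. The points share the same libraries, and length and GC content are themselves linked, so these correlations are descriptions.

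The parts of the transcript differed in how they ran with the change. The anterior change had a Spearman correlation of 0.58 with the length of the 3′ untranslated region, 0.07 with coding length and 0.02 with mean CPM. Of the 20 longer members (4998 to 26901 bases) 14 rose and 1 fell in the anterior palate, and of the 20 shorter ones 6 rose and 4 fell. Of the 20 members with less GC (36.9 to 49.8%) 16 rose and 1 fell, against 4 and 4 of the 20 with more (50.8 to 61.2%). Among all genes 25.6% rose and 24% fell in the anterior palate. All genes were not split in this way, so these counts are not read as particular to the family. Zbtb37 has a longest transcript of 18814 bases, of which 90.4% is 3′ untranslated region, and Zbtb48, which fell, has 2709 bases and 58.1% GC.

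With a length and GC trend fitted and removed in each library, 9 members rose and 9 fell in the anterior palate (background 16.1% and 16.6% of all genes with both values), and 4 rose and 4 fell in the posterior palate (7.72% and 10.1%). Of the 20 anterior rises, 6 were still called higher (Zbtb9, Zbtb33, Zbtb37, Zbtb38, Zbtb39 and Zbtb43), 10 were not called, and Zbtb1, Zbtb18, Zbtb21 and Zbtb44 were called lower. Zbtb12, Zbtb24 and Zbtb3 were called higher only after the removal, and Zbtb2 and Zbtb4 lower. Newly called in the posterior palate were Zbtb7b as higher and Zbtb2 and Zbtb44 as lower. Of the falls, Zbtb20, Zbtb45 and Zbtb48 stayed in the anterior palate, and Zbtb20 and Zbtb48 in the posterior palate. Zbtb17 and Zbtb22 were not called in either part after this removal. Zbtb37 was left at 1.46 (SE 0.15) in the anterior and 0.76 (SE 0.14) in the posterior palate, Zbtb33 at 0.51 (SE 0.073) and 0.42 (SE 0.073), and Zbtb41 at 0.15 (SE 0.072) and 0.14 (SE 0.072), all as log2 fold change. Zbtb20, the longest member, went to -1.21 (SE 0.16) and -0.91 (SE 0.16), past its value as counted.

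This check turned on which transcript gives a gene its length. With the coding transcript of median length in place of the longest, a choice made after the values were seen, 15 members rose and 5 fell in the anterior palate (background 17.5% and 21.4%) and 12 rose and 3 fell in the posterior palate (10.9% and 12.4%). Zbtb20, whose median coding transcript has 821 bases, was then at -0.49 and -0.46, and Zbtb18 at 0.62 and 0.63 where the longest transcript had given -0.22 and 0.15. Zbtb1, which has 1 annotated transcript and rose in both parts as counted, was called lower in the anterior palate under both removals (-0.36 each). Zbtb4 was called higher in both parts by the median transcript (0.47 and 0.41). So were Zbtb41 (0.67 and 0.44) and Zbtb21 (0.51 and 0.24), and the longest transcript had given Zbtb21 at -0.24 and -0.20. Called the same way as counted and under both removals were the rises of Zbtb33, Zbtb37, Zbtb38, Zbtb39 and Zbtb43 and the falls of Zbtb20 and Zbtb48 in the anterior palate. In the posterior palate these were the rises of Zbtb33, Zbtb37 and Zbtb43 and the falls of Zbtb20 and Zbtb48. After the removal by median transcript, the changes of all genes still had correlations of 0.35 and 0.29 with the longest length. For some members the median transcript is shorter than the coding sequence of the longest coding transcript. These lengths are 821 against 2223 bases for Zbtb20, 655 against 2043 for Zbtb48 and 2673 against 3591 for Zbtb38. The longest transcript, in turn, is not annotated as protein coding for Zbtb2, Zbtb8b, Zbtb9, Zbtb17 and Zbtb48. Neither choice therefore need give the length of the RNA that was counted. Which transcripts these tissues use was not tested.

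**Figure D3:**
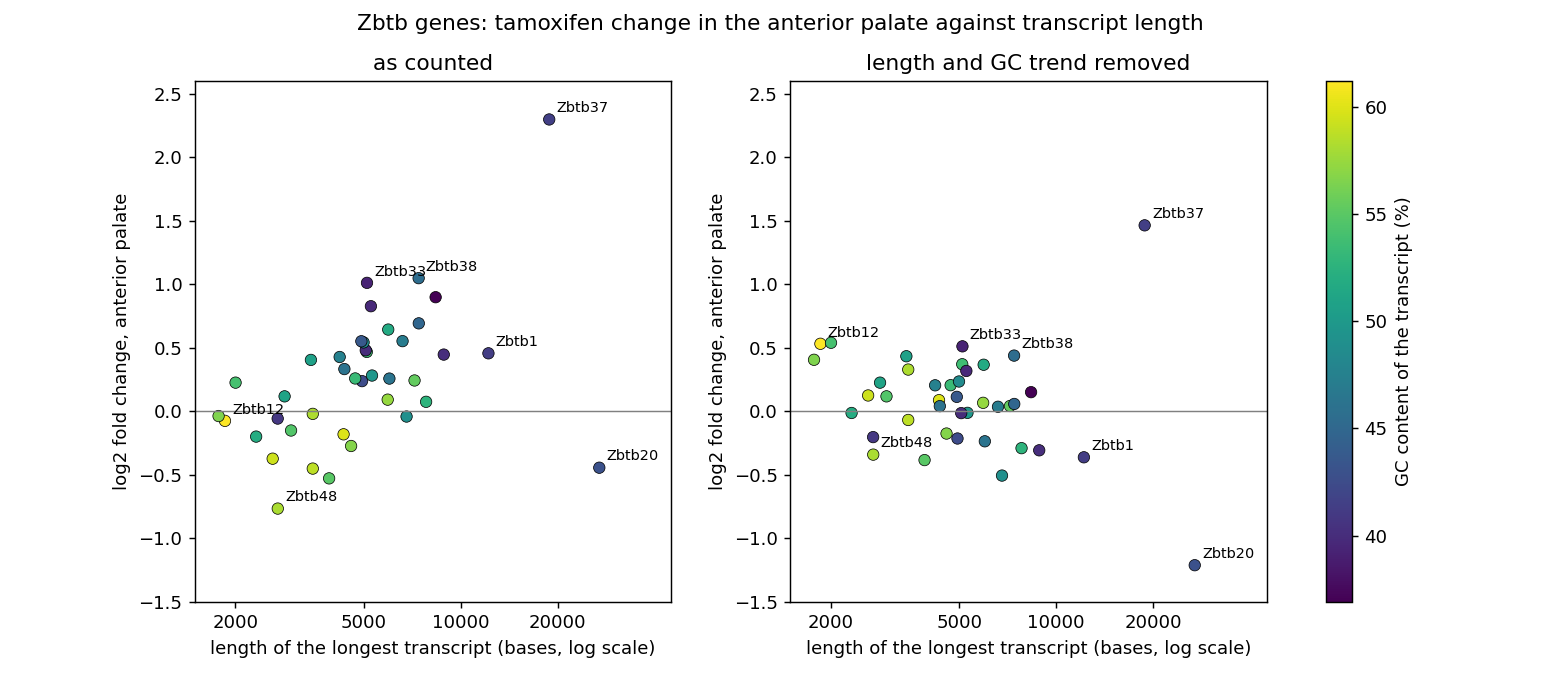
Anterior log2 fold change under tamoxifen (y axis) of the 40 Zbtb genes against the length of the longest transcript in bases (x axis, log scale), as counted on the left and with the length and GC trend removed on the right. Colour gives GC content. The Spearman correlation with length is 0.55 on the left and -0.25 on the right, Zbtb37 goes from 2.30 to 1.46, and Zbtb20 from -0.44 to -1.21.

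Between the parts of the palate few members differed. In controls 2 were higher in the anterior palate and 3 in the posterior palate (edgeR's quasi-likelihood test, Benjamini-Hochberg adjusted p under 0.05), that is 5.0% and 7.5% of the 40 beside 10.2% and 13.1% of all genes. Zbtb37 had the largest difference and was 2.13-fold lower in the anterior controls (log2 -1.09, SE 0.18, edgeR adjusted p = 0.00032). The values were 1.76, 1.93 and 1.45 CPM in the anterior and 3.45, 3.46 and 4.04 CPM in the posterior palate, with no overlap. With the length and GC trend removed, the log2 difference of Zbtb37 was -0.66 by the longest transcript (edgeR adjusted p = 0.004). By the median transcript it was -1.03 (edgeR adjusted p = 0.00027). The control libraries are also the base of the tamoxifen changes above. The 3 anterior libraries lay above the 3 posterior ones for 4 members and below them for 7, beside 20.2% and 21% of all genes.

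Zbtb7b (ThPOK), the switch to helper T cells and a gene that works outside lymphocytes too, was at 11.6, 11.8 and 12.3 CPM in anterior and 7.97, 7.42 and 8.52 CPM in posterior controls. It was 1.49-fold higher in the anterior palate (log2 0.58, SE 0.13, edgeR adjusted p = 0.0037). Summed epithelium markers were also higher there, at 770 to 996 CPM against 419 to 466 CPM in the posterior controls, and their part in this difference was not tested. Zbtb12 was 1.24-fold higher in the anterior controls (log2 0.31, SE 0.071, edgeR adjusted p = 0.0043), with 105, 114 and 111 CPM against 92.2, 83.7 and 90.4 CPM and no overlap. With the length and GC trend removed this difference was 0.15 by the longest transcript (edgeR adjusted p = 0.27). By the median transcript it was 0.21 and still called (edgeR adjusted p = 0.035).

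Zbtb46, known from classical dendritic cells and endothelium, was 1.53-fold lower in the anterior controls (log2 -0.62, SE 0.17, edgeR adjusted p = 0.016), with 2.87, 3.24 and 2.25 CPM against 3.93, 4.66 and 4.23 CPM. The groups were apart, but the call was lost without anterior library 3 (adjusted p = 0.079) or posterior library 2 (adjusted p = 0.071, both by edgeR). Endothelium markers summed to 357 to 395 CPM in anterior and 402 to 431 CPM in posterior controls, and macrophage and leukocyte markers to 37.7 to 43.6 and 43.0 to 45.1 CPM. Other markers differed more, with skeletal muscle at 6.09 to 16 and 391 to 418 CPM. Cartilage markers were at 359 to 419 CPM in anterior and 1840 to 2090 CPM in posterior controls. The share of these cell types in the differences between anterior and posterior controls was not tested. Zbtb11 was 1.28-fold lower in the anterior controls (log2 -0.35, SE 0.094, edgeR adjusted p = 0.012), without overlap, and this call too was lost without posterior library 2 (edgeR adjusted p = 0.063) or 3 (edgeR adjusted p = 0.060). With the length and GC trend removed, Zbtb11 was at -0.23 by the longest transcript (edgeR adjusted p = 0.037). By the median transcript it was at -0.14 and not called (edgeR adjusted p = 0.21).

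Under tamoxifen 1 member was higher in the anterior palate and 3 in the posterior palate, beside 7.6% and 10.2% of all genes. Without overlap, 5 members were above and 3 below, beside 16.3% and 16.8%. The tamoxifen libraries compared here also gave the changes on which the family was selected, so the p-values that follow are descriptive. Zbtb12 stayed higher in the anterior palate (log2 0.35, SE 0.071, edgeR adjusted p = 0.0019), at 102, 112 and 98.8 CPM against 78.5, 83.6 and 83.9 CPM. Zbtb46 stayed lower (log2 -0.52, SE 0.17, edgeR adjusted p = 0.042) and Zbtb4 was lower (log2 -0.28, SE 0.087, edgeR adjusted p = 0.032). Zbtb7c, named after its values were seen, was lower in the anterior palate (log2 -0.97, SE 0.29, edgeR adjusted p = 0.034) although its values overlapped, with 7.04, 3.67 and 9.80 CPM against 9.22, 16.2 and 14.8 CPM. The calls of Zbtb46 and Zbtb4 were lost without most of the single libraries, and with only the 6 tamoxifen libraries in the fit 0 members were called lower. Zbtb37 was not called between the parts (log2 -0.061, SE 0.16, edgeR adjusted p = 0.85), nor was Zbtb7b (log2 0.095, SE 0.13, edgeR adjusted p = 0.68). With the length and GC trend removed, 5 members were higher and 3 lower in the anterior palate in controls (background 14.4% and 12.5%) and 5 and 3 under tamoxifen (13.8% and 11%). By the transcript of median length these were 3 and 3 (13.9% and 12.7%), and 4 and 1 (12.2% and 10.5%).

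**Figure D4:**
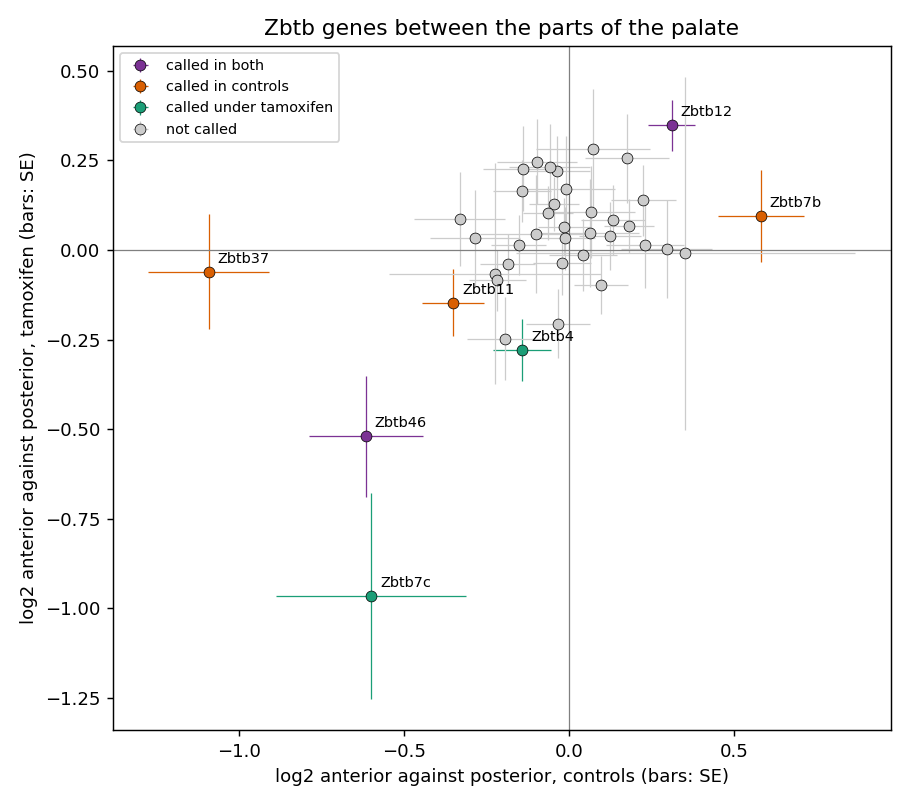
Log2 difference between anterior and posterior palate of the 40 Zbtb genes in controls (x axis) and under tamoxifen (y axis), with standard errors as bars and coloured points for called genes. Zbtb37 lies at -1.09 in controls and -0.061 under tamoxifen, and Zbtb12 and Zbtb46 were called in both.

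The difference of the tamoxifen changes between the parts is built from the values on which the family was selected, so it too is given as a description. The fit called 0 members and 0 of all genes (0%) by edgeR. At an unadjusted p under 0.05 there were 5 members and 2110 genes, and DESeq2 called 179 of 14407 genes (1.24%) and 1 member, Zbtb37. For Zbtb37 the anterior change exceeded the posterior one by log2 1.03 (SE 0.24) by edgeR and by 1.04 (SE 0.26) by DESeq2. With the length and GC trend removed the difference by edgeR was 0.71. Zbtb7b, second in the order of p, had a difference of log2 -0.48 (SE 0.18) by edgeR. Its tamoxifen values were 12.4, 8.95 and 10.03 CPM in the anterior and 9.30, 9.25 and 10.98 CPM in the posterior palate.

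The partners of these proteins were taken from a list of 20 genes, mostly of corepressors, deacetylases and ubiquitin ligases, which also held Ctnnd1, Myc and Max. In the anterior palate 9 rose and 5 fell, beside 25.6% and 24% of all genes, with a median log2 fold change of 0.12. The posterior counts were 6 and 4, beside 17.3% and 11.7%, with a median of 0.04. Tbl1x, a subunit of the NCoR and SMRT complexes, rose by log2 1.15 (SE 0.12) and 0.69 (SE 0.12), and the deacetylase gene Hdac4 by 0.94 (SE 0.10) and 0.67 (SE 0.10). With the length and GC trend removed both were still called higher in both parts, Tbl1x at 0.74 and 0.42 and Hdac4 at 0.55 and 0.41. Ctnnd1, the catenin bound by Zbtb33, rose by 0.64 (SE 0.072) and 0.45 (SE 0.072), and by 0.17 (SE 0.049) and 0.15 (SE 0.049) with the trend removed. Gps2, another subunit of the NCoR complex, fell by 0.65 (SE 0.066) and 0.33 (SE 0.066) on the log2 scale, and with the trend removed it was at -0.15 (SE 0.061) and -0.057 (SE 0.061), not called in either part. The corepressor gene Ncor1 went in the same way from called rises of 0.60 and 0.36 to 0.009 and -0.014, and Tbl1xr1, a paralogue of Tbl1x, from a called anterior rise of 0.34 to a called fall at -0.38. In all, 4 of the 20 were called higher and 7 lower in the anterior palate with the trend removed, beside 16.1% and 16.6% of all genes.

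Other BTB zinc finger genes carry symbols outside the Zbtb series, and 7 of 8 on a list of these were tested; Zfp131 was listed at 0 in every library. In each part of the palate 3 rose and 1 fell, beside the 25.6% and 24% of all genes in the anterior and 17.3% and 11.7% in the posterior palate. The gene that fell was Hic1 in the anterior and Bcl6b in the posterior palate. Gzf1 rose by log2 0.55 (SE 0.096) and 0.31 (SE 0.096), and with the length and GC trend removed it was at 0.32 (SE 0.079) and, not called, 0.15 (SE 0.079). Mynn rose by 0.54 (SE 0.11) and 0.36 (SE 0.11), but was at 0.001 (SE 0.072) and 0.038 (SE 0.072) with the trend removed, not called in either part. Hic1, a tumour suppressor gene expressed in embryonic mesenchyme, fell by log2 0.74 (SE 0.16) in the anterior palate and was at 0.24 (SE 0.15), not called, in the posterior palate. With the trend removed it was at -0.19 (SE 0.14), not called, in the anterior palate and was called higher, at 0.47 (SE 0.14), in the posterior palate. It was also lower in the anterior than in the posterior controls (log2 -1.63, SE 0.16, edgeR adjusted p = 4.5e-06).

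Markers of other cell types moved in some groups too. Of all genes, 25.6% were called higher and 24% lower under tamoxifen in the anterior palate, and 17.3% and 11.7% in the posterior palate. Under tamoxifen 3 of 5 macrophage and leukocyte markers rose in the anterior palate, from sums of 37.7 to 43.6 CPM to 43.2 to 60.9 CPM, and 3 of 4 endothelium markers rose and 1 fell, from 357 to 395 to 410 to 448 CPM. Mesenchyme markers went from 1950 to 1960 CPM to 2330 to 2540 CPM, with 3 of 5 called higher and 2 lower. Epithelium markers summed to 770 to 996 and 742 to 936 CPM, neuron markers to 53.9 to 73.8 and 57.8 to 86.2 CPM, and skeletal muscle markers to 6.09 to 16 and 4.26 to 6.32 CPM. Posterior skeletal muscle markers were at 391 to 418 CPM in controls and 458 to 657 CPM under tamoxifen. Posterior epithelium markers went from 419 to 466 CPM to 483 to 636 CPM without overlap, with 3 of 6 called higher. Posterior endothelium markers went from 402 to 431 CPM to 454 to 500 CPM, with 3 of 4 called higher, and posterior mesenchyme markers from 1910 to 1930 CPM to 1890 to 2160 CPM. With the length and GC trend removed, 0 of the 5 mesenchyme markers were called in the anterior palate. There 3 macrophage and leukocyte and 2 endothelium markers were called higher and 0 lower, beside 16.1% and 16.6% of all genes. In the posterior palate 2 epithelium and 2 endothelium markers were called higher, beside 7.72%. The part of these cell types in the changes of the Zbtb genes was not tested.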

How the data were processed

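RNA-seq was analysed from 12 libraries, 3 for each combination of palate part and treatment, grouped by their titles. The authors deposited raw counts per gene symbol. HISAT2, StringTie and build mm9 are named per the submitters' processing notes; versions, counting program, annotation and strand were not given in the sources used here. Totals were 39.4 M to 73 M counts, and 57.1 to 60.1% of counts from 1 to 100 were even, so mates of a read pair may have been counted separately. Replicates differed by more than counting noise (chi-square per degree of freedom 10.3 to 49.8).

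Models were run with edgeR 4.0.16 (R 4.3.3). The filterByExpr rule, applied by group, kept 15958 genes, TMM scaling was used, and a robust quasi-likelihood fit had 1 mean per group over 12 libraries (8 residual degrees of freedom). A gene was called where its p, adjusted by Benjamini-Hochberg over all genes tested, was under 0.05. Exact tests of 3 against 3 values were not used, since they cannot reach that level. The script was tested on simulated data.

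Length and GC content came from GENCODE transcripts of GRCm38, matched by symbol (23348 directly, 651 by an older symbol, of 24391). Exon overlaps and the lengths of coding and untranslated regions came from positions in the same annotation. The submitters name build mm9, so the overlaps may differ in the annotation used for counting. Natural splines (4 degrees of freedom each) were fitted per library, using genes whose mean log2 CPM exceeded 1, and entered as an offset. Promoter windows came from RefSeq (GRCm38.p6).

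The members, the role, partner and marker lists and the named-gene rule were chosen with earlier results of these data known. Values per library were given for members with the 6 largest called rises and 4 largest called falls under tamoxifen in either part, the 4 largest called differences each way between the parts in controls, the methyl-CpG binding members, Zbtb7a, Zbtb16, Zbtb18, Zbtb20 and Zbtb24, and the 2 members with the smallest p for the difference of effects. Alternatives were DESeq2 1.42.0, its size factors, no filter, the replicate number as a block, the trend removal with and without the block, the 6 libraries of a comparison and leaving out each library. Thinning to the lowest total and the transcript of median length were added after seeing the data.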

Additional observations from a re-analysis of the deposited data

How the results depend on the processing

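With the length and GC trend removed, anterior rises went from 20 to 9, and to 10 with the replicate block added, and anterior falls from 5 to 9 and 9. Posterior rises went from 12 to 4 and 6. Members higher in the anterior palate went from 2 to 5 and 5 in controls and from 1 to 5 and 6 under tamoxifen, or to 4 with the transcript of median length. Members lower in the anterior palate under tamoxifen went from 3 to 1 without a filter on low counts, to 1 with the replicate block, to 0 with the 6 libraries of the comparison and to 1 with the transcript of median length. DESeq2 called 1 member for the difference of effects, where edgeR called 0. The anterior log2 fold change of Zbtb22 changed sign to 0.12 under the removal, with and without the block, and to 0.078 with the median transcript. Neither 0.12 without the block nor 0.078 was called. For Zbtb18 the anterior value went to -0.22 under the removal, with and without the block, but was 0.62 and called higher with the median transcript. Those of Zbtb11 went to -0.018 and -0.008 (anterior, posterior) with the median transcript, not called. Beyond the removal itself the cause was not tested. With 1 library left out, anterior rises ranged from 15 to 19 and falls from 4 to 5, posterior rises from 10 to 11 and falls from 2 to 4 (2 without control or tamoxifen library 1 or 3). Members higher in the anterior palate ranged from 2 to 3 and lower from 1 to 5 in controls (1 without posterior library 2, 5 without anterior library 2), and under tamoxifen from 1 to 1 and from 0 to 3, and the difference of effects gave 0 each time. Of 34 called member results, DESeq2, its size factors and thinning kept 34 calls, and leaving out a library kept the call 175 times and lost it 29 times. Whether the replicate numbers pair the samples could not be told. Correlations of the 18 same-numbered pairs ran from -0.0582 to 0.1471. The 2 over 0.1 were both between anterior and posterior tamoxifen libraries (0.1471 for number 1 and 0.1374 for number 3). For 7 of 12 libraries the best match in another group had their own number. The replicate block kept 33 of the 34 calls, and Zbtb46 under tamoxifen was lost. Zbtb1, called higher in the anterior palate as counted, was called lower there with the trend removed, at -0.36 by either transcript. Zbtb32 had the fewest counts of the family, 4 to 26 per library.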
